A study of Mus musculus with 29 samples.

Results

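Ccl3 and Ccl4, 2 neighbouring genes for secreted inflammatory chemokines, were followed through every cell type of mouse brain and blood after experimental stroke. They were taken by their gene symbols and are 2 of the 27827 genes listed in any of the count tables, of which 15721, both chemokines included, are listed in every table. Single cells were profiled by Drop-seq, which captures cells in droplets with barcoded beads, in 29 libraries of C57BL/6J mice operated on to block the middle cerebral artery for a limited time (stroke) or only sham operated. Brain libraries held sorted cells (leukocytes with high CD45, microglia and endothelial cells) from 4 to 5 pooled hemispheres. They comprised 4 libraries of sham day 2, 4 of stroke day 2 and 4 of stroke day 14 from young males (8 to 10 weeks), and 2 of sham day 2 (1 male, 1 female), 3 of stroke day 2 (1 male, 2 female) and 1 of stroke day 14 (female) from aged mice (17 to 20 months). Blood libraries held leukocytes pooled from 2 young male mice each, with 4 libraries of sham day 2, 4 of stroke day 2 and 3 of stroke day 14. All preparations received the P2X7 antagonist Brilliant Blue G and the transcription inhibitor actinomycin D, and the brain digestion with papain also held the NMDA receptor blocker AP-5. No sham library of day 14 was analysed here, and the day 2 sham libraries serve as controls for either stroke time. Each library is a pool of animals, so the spread given below is between pools.

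Ccl3 (MIP-1 alpha) and Ccl4 (MIP-1 beta) are CC chemokines that draw monocytes, T cells, NK cells and other leukocytes towards their source. Ccr1 is one of the receptors of Ccl3. Macrophages, microglia, granulocytes, basophils and cytotoxic lymphocytes can make them, and their genes are transcribed within a short time of a stimulus through NF-kB and other inducible factors. Microglia can switch them on while brain tissue is being dissociated, which is one use of transcription inhibitors during digestion.

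In the mm10 annotation Ccl3 (ENSMUSG00000000982) lies on chromosome 11 from 83647844 to 83649355 on the minus strand, and Ccl4 (ENSMUSG00000018930) from 83662584 to 83664683 on the plus strand. Each has 3 exons. They are 13228 bases apart with 0 protein-coding genes between them, and the chemokine genes Ccl5, Ccl9 and Ccl6 lie on the other side of Ccl3.

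The tables held 106977 cells, 1143 to 6328 per library, with 819438 to 5855047 total counts per library and a median of 321 to 1363 counts per cell. Cell types and subtypes are those the authors deposited for each cell. Levels are CPM: counts were summed over a library's cells of a type and scaled so that each such sum has the same total, for types with at least 20 cells in that library. The marker lists put the microglia, granulocytes, endothelial cells, neutrophils, T, B and NK cells under their own labels, but in cells labelled dendritic the monocyte and macrophage markers were the highest list. In border-associated macrophages too, the monocyte and macrophage markers stood first (2525 CPM per gene), ahead of the list's own markers (1936 CPM per gene). The microglia of young stroke day 2 replicate 3 stood apart. They were 58 cells, their microglia markers summed to 644 CPM against 11249 to 13098 in the other 3 stroke day 2 libraries, and 96.6% of them belonged to 1 subtype, Mg4. The differences of Ccl3 and Ccl4 between microglial groups are therefore also given without that library. Of the 406 pairs of libraries, 231 shared at least 1 cell barcode, and no pair shared more than 7.

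In young brain, Ccl3 and Ccl4 were found in macrophages, microglia, granulocytes and NK cells, and were at or near 0 in endothelial cells. Over the 3 groups together, the median Ccl3 level per library was 834 CPM in border-associated macrophages, 712 in microglia, 538 in NK cells, 478 in granulocytes, 277 in monocyte-derived cells, 69.8 in dendritic cells and 48.1 in T cells. For Ccl4 the order was NK cells (1404 CPM), microglia (1241), border-associated macrophages (1236), granulocytes (1117), monocyte-derived cells (448), dendritic cells (353) and T cells (104). The order differed between the groups: granulocytes averaged 77.4 CPM of Ccl3 in sham, under microglia (654), border-associated macrophages (976), monocyte-derived cells (329) and dendritic cells (243), and 3401 CPM at day 14, above microglia (1579). Neighbours in the pooled orders overlapped in their ranges over libraries, except that Ccl4 in T cells lay above endothelial cells. Endothelial cells ranged from 0 to 23.5 CPM for Ccl3 and from 0 to 17.3 CPM for Ccl4. These levels are a description of libraries whose mix of cells was set by sorting.

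Part of the non-zero values were far below 1, and this matters for any share of positive cells. In endothelial cells of young brain 91.7% of the non-zero Ccl3 values and 97.8% of the non-zero Ccl4 values were under 0.5, against 0.705% and 0.614% in microglia. Endothelial cells with a Ccl3 value above 0 made up 1.84% of 5880 cells, but those with a value of at least 0.5 made up 0.153%. Shares of positive cells in a type are therefore given at a value of at least 0.5, a limit chosen after the values were seen, while thinning used values rounded to whole counts and the sharing of both genes by a cell used any value above 0. The CPM of the sums are touched less by such small values in cells that express the genes than in endothelial cells. With every value rounded up, Ccl3 went from 1189 to 1233 CPM in microglia and from 929 to 1053 CPM in border-associated macrophages. It went from 83.6 to 98.1 CPM in dendritic cells and from 3.46 to 26.7 CPM in endothelial cells.

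**Figure D1:**
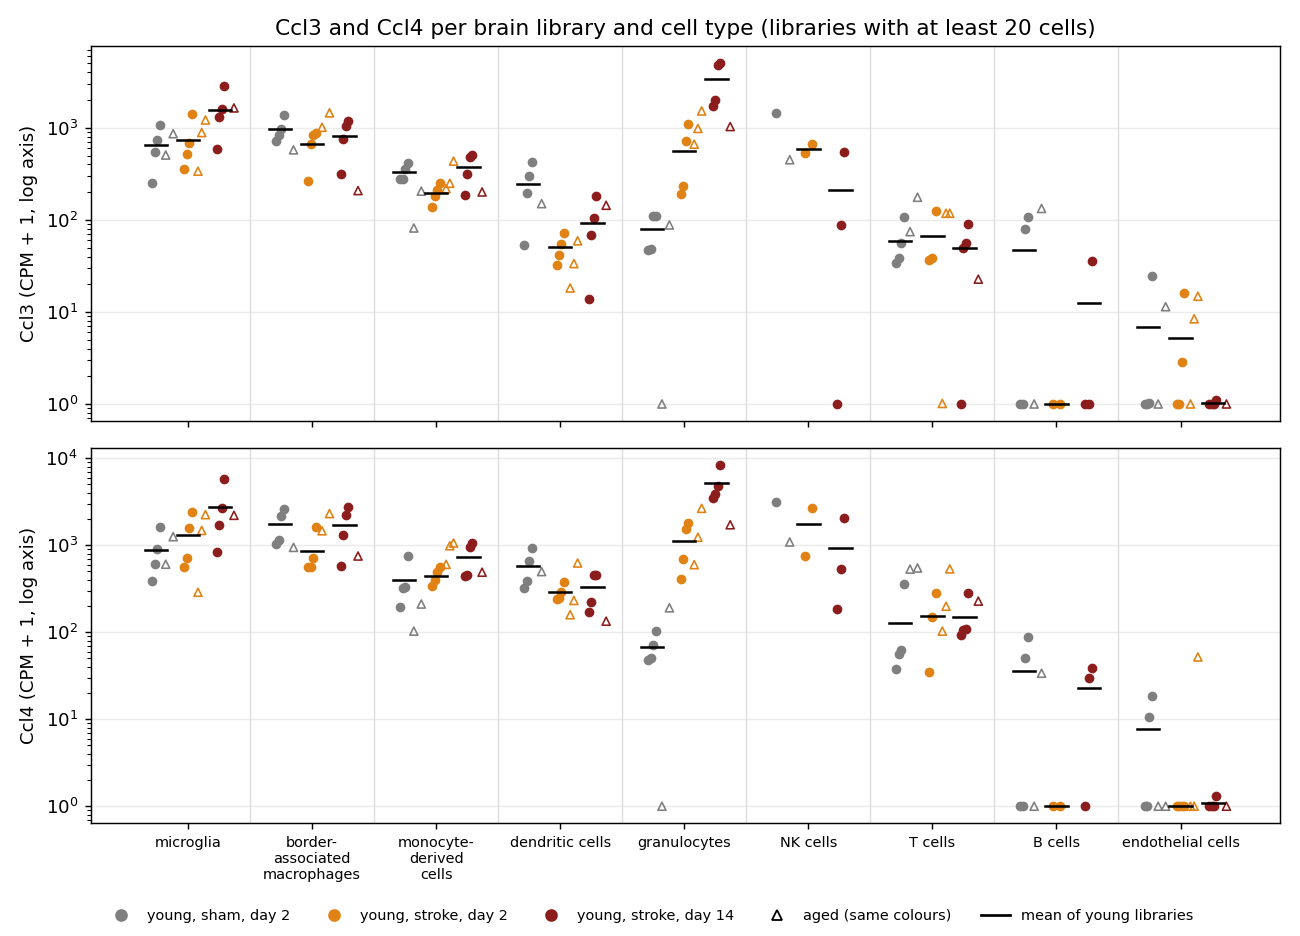
Ccl3 and Ccl4 in 9 cell types of brain, as CPM + 1 on a log axis; each filled point is 1 young library of sham day 2, stroke day 2 or stroke day 14, each open triangle 1 aged library, and the bar is the mean of the young libraries. Young granulocytes lie at 45.5 to 109 CPM of Ccl3 in sham and at 1734 to 5060 CPM at day 14, while young microglia of the 3 groups overlap.

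Granulocytes of the brain showed the clearest change: both chemokines were low after sham surgery, higher 2 days after stroke and highest at 14 days. Ccl3 stood at 46.9, 45.5, 109 and 109 CPM in the 4 sham libraries, at 723, 1089, 234 and 188 CPM at stroke day 2, and at 5060, 4781, 2028 and 1734 CPM at day 14. Ccl4 stood at 47.4, 49.2, 70.9 and 101 CPM in sham, at 1790, 1550, 409 and 685 CPM at day 2, and at 4848, 8320, 3495 and 3859 CPM at day 14. No library of one group reached into the range of the next group, for either gene. The libraries held 29 to 169 granulocytes each, and the sham group together held 20.5 counts of Ccl3 and 18.2 of Ccl4, so the sham level is the least precise of the 3.

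Fits were made across all genes with edgeR's quasi-likelihood test on the summed counts, and p-values were adjusted over all genes tested (Benjamini-Hochberg); a gene is called changed at an adjusted p under 0.05. In granulocytes at stroke day 2, Ccl3 rose by a log2 fold change of 2.52 (SE 0.63; adjusted p = 0.0159), from 77.4 ± 36.1 to 558 ± 429 CPM (SD, n = 4 libraries each, edgeR). Ccl4 rose by 3.82 on the log2 scale (SE 0.52; adjusted p = 0.000203, edgeR), from 67.2 ± 25.2 to 1108 ± 665 CPM. In that comparison 8.35% of 994 genes tested were called. At stroke day 14 against sham, Ccl3 rose by 5.02 (SE 0.61; adjusted p = 1.03e-05) to 3401 ± 1763 CPM, and Ccl4 by 5.85 (SE 0.53; adjusted p = 3.99e-07) to 5130 ± 2202 CPM, with 26.1% of the genes called. By size of log2 fold change, Ccl4 ranked 2 and Ccl3 ranked 5 among the 994 genes. The filter admits a gene that has enough counts in 1 group only, and the sham group held few counts of both. The rank therefore depends in part on the filter and is a description. Both also rose from day 2 to day 14, Ccl3 by 2.50 (SE 0.54; adjusted p = 0.00946) and Ccl4 by 2.03 (SE 0.43; adjusted p = 0.00854), where 4.23% of genes were called; with no filter on low counts the Ccl4 difference was 2.02 (adjusted p = 0.0626). The day 2 call for Ccl3 was lost without sham replicate 2 (2.19, adjusted p = 0.0719), without stroke day 2 replicate 2 (1.89, adjusted p = 0.0693) and with no filter on low counts (2.20, adjusted p = 0.0704).

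The share of positive granulocytes moved the same way as the level. A value of at least 0.5 was found in 3.68% of 517 sham cells for Ccl3 and in 3.29% for Ccl4. At day 2 it was found in 12.3% and 17.1% of 350 cells, and at day 14 in 33.3% and 34.7% of 363 cells. With each cell thinned to 300 counts and shallower cells left out (149, 92 and 123 cells in the order sham, day 2, day 14), 1.63%, 9.69% and 30.8% of cells kept a count of Ccl3, against 0.0786%, 0.0475% and 0% of endothelial cells. For Ccl4 the thinned shares of granulocytes were 1.90%, 13.6% and 32.1%.

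Several marker sums moved with the granulocyte result. The summed neutrophil markers (S100a8, S100a9 and 4 others) were 219400 to 288180 CPM in sham, 110666 to 202456 at day 2 and 52258 to 66366 at day 14. The summed monocyte and macrophage markers were 6895 to 9215, 1387 to 5749 and 1055 to 3209 CPM, lower after stroke than in sham. Basophil and mast cell markers were at 0 in all 3 groups. Eosinophil markers lay at 0 to 15.8 CPM in sham, 0 to 136 at day 2 and 0 to 273 at day 14. They reached 1425 CPM in the 41 day 14 cells of the deposited subtype Gran5. Microglia markers summed to 131 to 455, 116 to 589 and 334 to 600 CPM in sham, day 2 and day 14. The summed immediate early genes, which mark recent stimulation, were 4169 to 6404 CPM in sham, 8518 to 12692 at day 2 and 13506 to 21385 at day 14. The part of these shifts in the chemokine result was not tested.

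The make-up of the granulocytes also differed between groups, and the subtypes differed in their chemokine levels. Subtype Gran1 made up 75.6% to 90.8% of granulocytes in sham libraries, 20% to 44.6% at day 2 and 3.15% to 6.9% at day 14. Gran2 had no cell in sham replicate 4 and made up 0.704% to 8.43% in the other 3 sham libraries, 45.9% to 58.5% at day 2 and 52.3% to 65.5% at day 14. Gran3 had no cell in sham and made up 2.7% to 24% at day 2 and 22.2% to 29.6% at day 14. In sham, Gran1 held 77.1 ± 25.2 CPM of Ccl3 and 76.6 ± 47.5 CPM of Ccl4 (SD, n = 4). At day 2, Gran1 held 0.904 counts of Ccl3 and 11.4 of Ccl4 in 124 cells, with means of 9.09 ± 12.9 and 152 ± 77.4 CPM in the 2 libraries with at least 20 such cells. Gran2 held 771 ± 353 and 1581 ± 824 CPM at day 2 (n = 4), and 1115 ± 197 and 1910 ± 393 CPM at day 14 (n = 3). Gran3 at day 14 stood highest, with 4726 ± 1118 CPM of Ccl3 and 9879 ± 649 CPM of Ccl4 (n = 2), and 68.8% and 66.7% of its 93 cells had a count. Within Gran2, the difference between day 14 and day 2 was 0.63 for Ccl3 and 0.47 for Ccl4 on the log2(CPM + 10) scale, with p = 0.257 and p = 0.629 in an exact two-sided permutation test. The subtypes were clustered on these same cells, so their levels are a description.

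**Figure D2:**
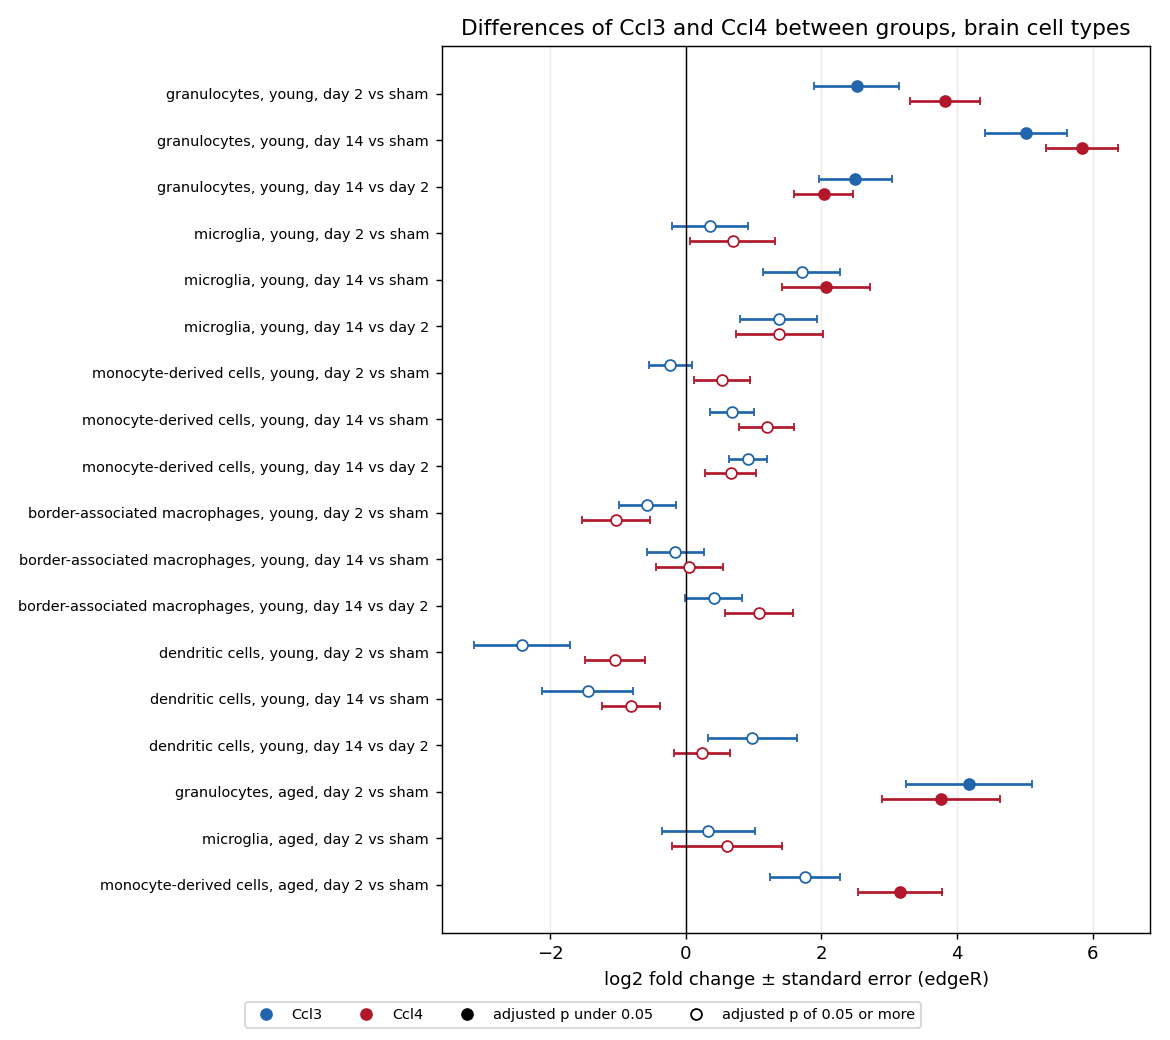
Log2 fold changes with their standard errors for Ccl3 and Ccl4 within brain cell types, from edgeR; filled points have an adjusted p under 0.05. The granulocyte points lie farthest to the right in young brain, at 5.02 and 5.85 for day 14 against sham, and the microglial points at day 2 lie near 0 (0.35 and 0.69).

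Microglia, the resident macrophages of the brain, held most of the counts of both genes in sham brain and were called for neither gene between sham and stroke day 2. They contributed 84.2% to 88.5% of a sham library's Ccl3 counts and 82.4% to 86.9% of its Ccl4 counts. Ccl3 stood at 547, 745, 1071 and 253 CPM in sham, at 524, 360, 679 and 1412 CPM at stroke day 2, and at 2851, 582, 1302 and 1580 CPM at day 14. Ccl4 stood at 600, 909, 1622 and 385 CPM in sham, at 713, 555, 1574 and 2418 CPM at day 2, and at 5707, 834, 1698 and 2666 CPM at day 14. The 3 groups overlapped for both genes, and day 14 replicate 2 stayed within the sham range.

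At day 2 the microglial difference from sham was 0.35 for Ccl3 (SE 0.56; adjusted p = 0.662) and 0.69 for Ccl4 (SE 0.63; adjusted p = 0.413, edgeR), with means of 744 ± 464 and 1315 ± 861 CPM against 654 ± 344 and 879 ± 540 (SD, n = 4). Neither passed the test, in a comparison that called 31.4% of 10145 genes. Without stroke day 2 replicate 3 these differences were 0.46 and 0.72, and those of day 14 against sham, described next, were 1.70 (adjusted p = 0.0718) and 2.05 (adjusted p = 0.0624). At day 14 against sham, Ccl4 rose by 2.07 (SE 0.65; adjusted p = 0.0463, edgeR) to 2726 ± 2123 CPM, and Ccl3 differed by 1.71 (SE 0.57; adjusted p = 0.0569), which missed the threshold, with a mean of 1579 ± 947 CPM. In that comparison 15.2% of genes were called. The Ccl4 call was narrow, and a block for replicate number, given in the closing section, also ended it. Omitting sham replicate 1, 2 or 4, stroke day 2 replicate 1 or 3, or stroke day 14 replicate 1 or 3 ended it, with values of 1.42 to 2.56 over the 12 such omissions and adjusted p of 0.024 to 0.148. Ccl3 passed without stroke day 2 replicate 2 (1.71, adjusted p = 0.045) or 4 (1.69, adjusted p = 0.038) or stroke day 14 replicate 2 (1.99, adjusted p = 0.0323), and in DESeq2 (1.58, adjusted p = 0.0224), in cells holding 500 counts or more (1.75, adjusted p = 0.0471), without the 5% of cells with the most counts (1.73, adjusted p = 0.0495) and with only the 2 compared groups in the fit (1.75, adjusted p = 0.0401). Without TMM scaling Ccl4 differed by 1.64 (adjusted p = 0.0554), with a median over all genes of -0.49 in place of -0.04, and with every value rounded up by 2.05 (adjusted p = 0.0754). From day 2 to day 14 the differences were 1.37 (adjusted p = 0.175) and 1.38 (adjusted p = 0.225), or 1.24 and 1.34 without stroke day 2 replicate 3, where 6.97% of genes were called.

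The share of positive microglia was higher in both stroke groups than in sham before cells were brought to 1 depth. A Ccl3 value of at least 0.5 was found in 16.8% of 10874 sham microglia, 37.5% of 2693 at day 2 and 45.9% of 5170 at day 14. For Ccl4 the shares were 19.7%, 41.8% and 52.6%. With cells thinned to 300 counts the Ccl3 shares were 12.3%, 17.2% and 29.3%, and per library they ranged over 6.15% to 21.5%, 7.66% to 23.9% and 12.8% to 43.2%. The thinned ranges of the 3 groups overlapped, and thinning left out 2314, 379 and 940 shallower cells. No test was made on cells.

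Markers also moved with the groups in microglia. The microglia markers summed to 15079 to 22845 CPM in sham, 644 to 13098 at day 2 and 10521 to 14644 at day 14, and the monocyte and macrophage markers to 233 to 391, 545 to 4184 and 2151 to 3152 CPM. The immediate early genes summed to 3746 to 17808 CPM in sham, 1216 to 5487 at day 2 and 2531 to 20910 at day 14. Within each group, this sum put the libraries in the same order as Ccl3 and Ccl4 did. The part of these markers and genes in the microglial levels was not tested.

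Microglial subtypes stood at widely spaced levels. Mg1, which made up 42% to 71.2% of sham microglia, held 278 ± 112 CPM of Ccl3 and 347 ± 162 CPM of Ccl4 in sham (SD, n = 4). Mg2 in the same libraries held 880 ± 364 and 1181 ± 599 CPM. Mg6 held the most, with 2107 ± 463 CPM of Ccl3 and 3185 ± 533 CPM of Ccl4 in sham (n = 2) and 3536 ± 1118 and 6579 ± 2514 CPM at day 14 (n = 2). The immediate early genes summed to 21147 CPM in sham Mg6 and 26804 CPM in Mg6 of day 14, against 3110 CPM in sham Mg1. At day 14, Mg3 made up 59.3% to 76.4% of microglia and held 1526 ± 789 and 2662 ± 1874 CPM. Over all brain subtypes, 62 comparisons between groups could be tested, and none was called (lowest adjusted p = 0.886 in the exact permutation test); with 4 against 4 libraries the test can give no p below 0.0286, so a single subtype could hardly pass after adjustment.

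**Figure D3:**
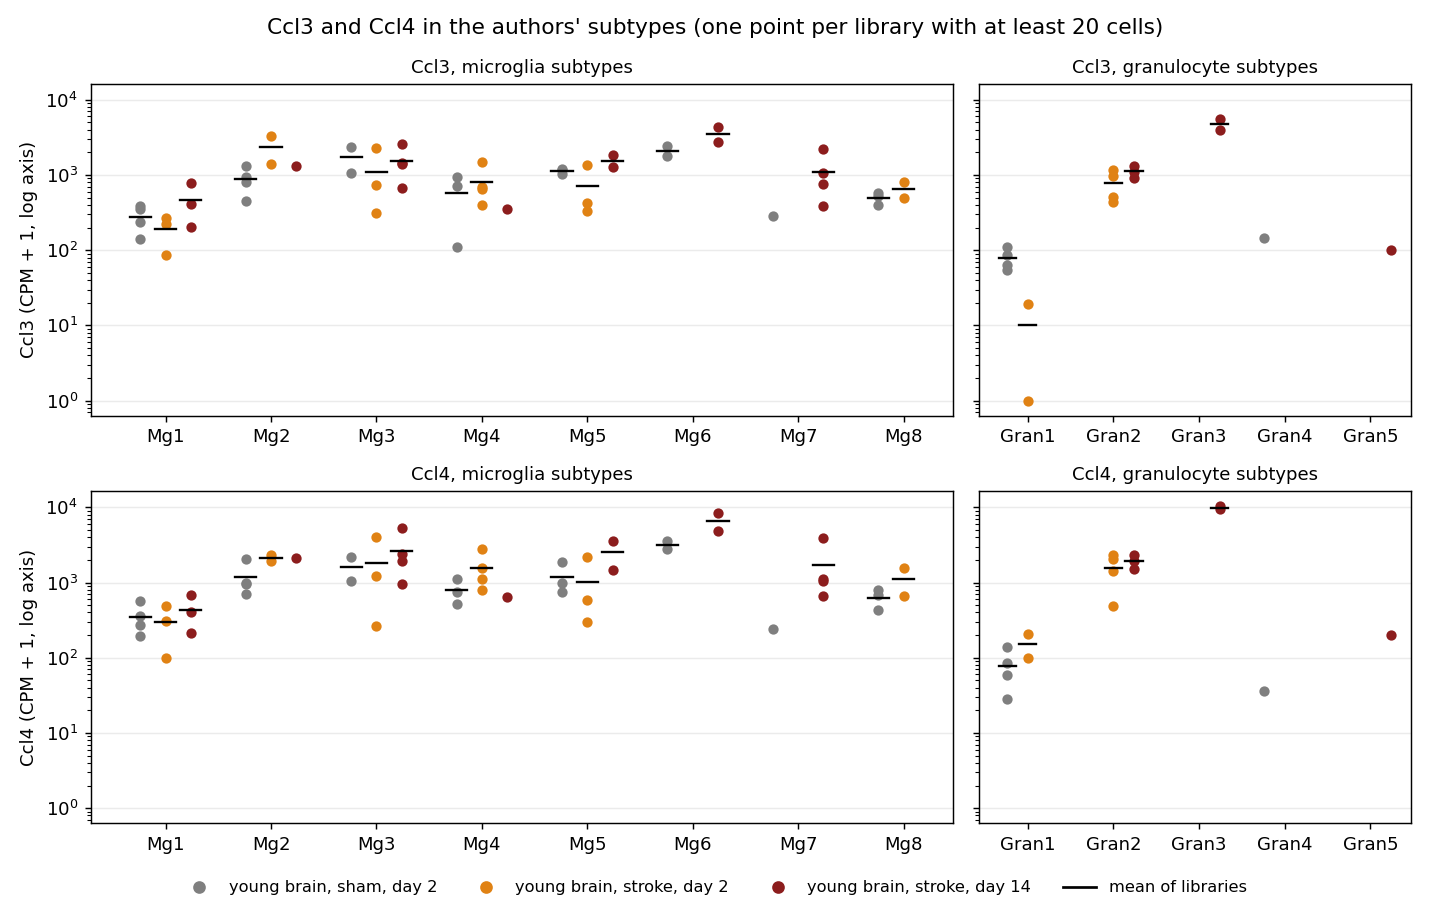
Ccl3 and Ccl4 in the deposited subtypes of microglia (Mg1 to Mg8) and granulocytes (Gran1 to Gran5) of young brain, as CPM + 1 on a log axis; each point is 1 library with at least 20 cells of the subtype, coloured by group, and the bar is the mean. Gran1 lies at 77.1 CPM of Ccl3 on average in sham and 9.09 CPM at day 2, and Gran3 at day 14 lies highest among the granulocytes (4726 CPM).

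Monocyte-derived cells, the infiltrating macrophages and monocytes, carried both genes at a lower level than microglia, with no call between young groups in edgeR. Ccl3 stood at 279, 354, 274 and 409 CPM in sham, at 249, 179, 211 and 136 CPM at day 2, and at 502, 482, 313 and 184 CPM at day 14. Ccl4 stood at 326, 745, 322 and 193 CPM in sham, at 495, 335, 565 and 394 CPM at day 2, and at 1060, 950, 441 and 455 CPM at day 14. For Ccl3 every day 2 library lay below every sham library, but the fitted difference was -0.23 (adjusted p = 0.773, edgeR). The median of all genes in that fit was 0.29, and -0.13 without TMM scaling, where the Ccl3 difference was -0.67 (adjusted p = 0.299). The difference was 0.10 with no filter on low counts and 0.04 without the 5% of cells with the most counts. At day 14 the differences from sham were 0.68 for Ccl3 (adjusted p = 0.294) and 1.19 for Ccl4 (adjusted p = 0.124), and Ccl4 passed without sham replicate 2 (1.79, adjusted p = 0.045). From day 2 to day 14 they were 0.91 for Ccl3 (adjusted p = 0.147) and 0.66 for Ccl4 (adjusted p = 0.577), and DESeq2 called Ccl3 there (1.01, adjusted p = 0.0491). Of 8080 genes, 6.71% were called at day 2, 5.15% at day 14 against sham and 1.79% at day 14 against day 2.

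The number of monocyte-derived cells differed widely between libraries, and so did their share of each brain library's chemokine counts. They held 0.983% to 3.11% of Ccl3 counts in sham, 5.71% to 82.7% at day 2 and 3.17% to 28.1% at day 14, while their mean share of the cells was 2.17%, 49.9% and 22.6%. Microglia held 2.23% to 88.4% of Ccl3 counts at day 2 and 61% to 92.7% at day 14. Granulocytes held at most 6.94% of Ccl3 counts and 8.3% of Ccl4 counts at day 14.

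Subtype MdC3, which made up 67.4% to 91.5% of these cells in sham, averaged 160 ± 147 CPM of Ccl4 in sham, 152 ± 89.7 at day 2 and 159 ± 112 at day 14 (SD, n = 4), and 232 ± 27.1, 154 ± 84.4 and 169 ± 68.4 CPM of Ccl3. MdC4 held 768 ± 184 CPM of Ccl4 at day 2 and 1033 ± 402 CPM at day 14 (n = 4). MdC5 held 160 ± 48.9 CPM of Ccl3 at day 2 and 394 ± 147 CPM at day 14; p = 0.0286 in an exact permutation test, the smallest that 4 against 4 libraries can give, which did not hold after adjustment over the 62 comparisons.

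Microglia and monocyte-derived cells of the same stroke libraries could be compared directly, with the library as a block. At day 14 Ccl3 was higher in microglia by 2.00 on the log2 scale (adjusted p = 0.000969, edgeR) and Ccl4 by 1.73 (adjusted p = 0.00259), in a comparison where 34.3% of genes were called. At day 2 Ccl3 was higher by 1.36 (SE 0.41; adjusted p = 0.0135) and Ccl4 differed by 0.89 (adjusted p = 0.073), with 42.4% of genes called. The Ccl3 call at day 2 was lost without stroke day 2 replicate 4 (0.80, adjusted p = 0.0883), and without replicate 3 it was 1.39 (adjusted p = 0.0268). Ccl4 at day 2 passed when stroke day 14 replicate 2, which enters the same fit, was left out (0.88, adjusted p = 0.0135), without TMM scaling (1.34, adjusted p = 0.0129) and with no filter on low counts (0.88, adjusted p = 0.0214).

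Border-associated macrophages, which line vessels and meninges, carried high levels in every group. Ccl3 stood at 710, 969, 1389 and 838 CPM in sham, at 670, 261, 829 and 881 CPM at day 2, and at 1196, 311, 1035 and 748 CPM at day 14. Ccl4 stood at 1024, 1160, 2193 and 2592 CPM in sham, at 556, 555, 1615 and 716 CPM at day 2, and at 2752, 583, 1311 and 2231 CPM at day 14. The groups overlapped and nothing was called: at day 2 the differences were -0.57 (adjusted p = 0.434) for Ccl3 and -1.03 (adjusted p = 0.229) for Ccl4, with 2.67% of genes called. The later comparisons called neither gene, among 0.0762% of genes at day 14 against sham and 0.838% at day 14 against day 2. Over the libraries of the 3 groups pooled, Ccl4 averaged 3161 ± 680 CPM in subtype BAM2 (SD, n = 9 libraries) and 633 ± 241 CPM in BAM1 (n = 5).

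Dendritic cells carried more Ccl4 counts than Ccl3 counts. Ccl3 stood at 193, 427, 52.3 and 300 CPM in sham, at 40.3, 31.3, 53.2 and 71.9 CPM at day 2, and at 180, 104, 12.7 and 67.7 CPM at day 14. The day 2 difference of -2.42 (SE 0.71; adjusted p = 0.12, edgeR) was not called, in a comparison where 1.01% of genes were, and sham replicate 3 lay within the day 2 range. For Ccl4, which lay at 324 to 937 CPM in sham and 243 to 382 CPM at day 2, the difference was -1.05 (adjusted p = 0.271). Neither gene was called at day 14 against sham (1.53% of genes called) or against day 2 (0.893%).

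NK cells, cytotoxic lymphocytes known to secrete both chemokines, reached 20 cells in 6 of the 12 young brain libraries. In the 1 sham library they held 1446 CPM of Ccl3 and 3182 CPM of Ccl4. At day 2 they held 529 and 660 CPM of Ccl3 with 754 and 2710 CPM of Ccl4, and at day 14 they held 86.3 and 548 CPM of Ccl3 and practically 0 in the last library, with 536, 2054 and 183 CPM of Ccl4. T cells held 33.7 to 356 CPM of Ccl4 over the libraries of the 3 groups, with no call in edgeR, where 0%, 0.0954% and 0% of genes were called at day 2, at day 14 and between them. In NK cells, day 14 against day 2 called 0% of genes. B cells of the brain held 0 to 106 CPM of Ccl3 and 0 to 88.2 CPM of Ccl4.

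In blood the picture was different: eosinophils and basophils, labelled as 1 type, carried the highest Ccl3 levels, and monocytes and neutrophils next to none. Eosinophils and basophils held 6399 and 1339 CPM of Ccl3 in the 2 sham libraries with at least 20 such cells, 4655 and 7854 CPM at day 2, and 858, 2474 and 6134 CPM at day 14. Ccl4 stood at 3287 and 407, at 3182 and 7434, and at 188, 818 and 2723 CPM. The median Ccl3 level of 4655 CPM compared with 144 CPM in NK cells, 8.14 in monocytes and 2.97 in neutrophils, and the range of the eosinophils and basophils (858 to 7854) did not overlap that of NK cells (35.3 to 264). For Ccl4 the ranges of these types overlapped, at 188 to 7434 CPM against 133 to 1034 CPM in NK cells. Of all 317 cells of this type, 55.5% had a Ccl3 value of at least 0.5 and 31.2% a Ccl4 value of at least 0.5. Neither gene was called between groups in edgeR without a block for replicate number (adjusted p of 0.426 to 0.998, and 0%, 0% and 0.277% of 361 genes called). With that block, given in the closing section, Ccl4 passed at day 14 against sham and against day 2, but the sham side then rests on 1 library.

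The 2 subtypes within this label can be told apart in the deposited cells. Basophils held 4758, 5887 and 4529 CPM of Ccl3 in the pooled sham, day 2 and day 14 cells (47, 56 and 91 cells). Eosinophils held 2462 CPM in 30 sham cells, 3751 CPM in 21 cells of day 2 and 308 CPM in 72 cells of day 14. Single libraries carried the first 2 of these values: 7 cells of sham replicate 1 held 28 of the 29.4 counts, and 17 cells of stroke day 2 replicate 1 held all 62.4. Over the libraries, eosinophils ranged from 0 CPM to 6888 CPM of Ccl3, the latter in 7 cells. Basophil and mast cell markers, chosen after the values were seen, summed to 1304 to 8737 CPM in the libraries of this label, and neutrophil markers to 18.7 to 12184 CPM. The part of the neutrophil markers was not tested.

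Blood NK cells carried Ccl4 at 296, 449, 246 and 133 CPM in sham, 386, 221, 366 and 577 CPM at day 2, and 1034, 620 and 486 CPM at day 14. Every day 14 library lay above every sham library. In day 14 replicate 1, 33 cells of the deposited subtype NK3 held 108 of the 137 Ccl4 counts. Its NK1 cells stood at 295 CPM, within the sham NK1 range of 86.9 to 306 CPM. Cells with a Ccl4 value of at least 0.5 made up 4.88% to 14.5% in sham and 9.76% to 19.1% at day 14, which overlap. The difference between day 14 and sham was 1.29 on the log2 scale (SE 0.29; adjusted p = 0.076, edgeR), from 281 ± 131 (SD, n = 4) to 714 ± 286 CPM (n = 3). It was the largest of the 1000 genes tested and was not called; 0% of genes were called there (DESeq2 called 0), and 23 had p under 0.05 before adjustment. It passed without stroke day 2 replicate 4 (1.29, adjusted p = 0.0188), stroke day 14 replicate 2 (1.38, adjusted p = 0.046) or replicate 3 (1.51, adjusted p = 0.0165). It also passed with no filter on low counts (1.48, adjusted p = 0.00216), in cells holding 500 counts or more (2.03, adjusted p = 0.00126) and without the 5% of cells with the most counts (1.34, adjusted p = 0.0249). Ccl3 in the same cells lay at 35.3 to 264 CPM in sham and 144 to 157 CPM at day 14.

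Blood monocytes and neutrophils held so few counts that ratios of counts are given with 95% intervals, which cover counting error only. Blood neutrophils had no Ccl3 count in 5451 sham cells (under 0.01 in sum), 13 counts in 8813 cells at day 2 and 20.6 counts in 2922 cells at day 14. The pooled levels were 2.2 CPM at day 2 and 15.8 CPM at day 14. The 3 day 14 libraries lay at 10.9 to 33 CPM, above the 0.629 to 7.09 CPM of day 2. Ccl4 in the same neutrophils overlapped between groups, at 3.41 to 19.1 CPM in sham, 0 to 28.1 at day 2 and 6.41 to 17.1 at day 14, with 51.1, 103 and 18.4 counts. Monocyte Ccl3 reached at most 9.21 CPM in sham and lay at 4.37 to 45.1 CPM at day 2 and 3.65 to 16.3 CPM at day 14. These ranges overlapped, and sham replicate 1 held 5.8 of the 7.76 sham counts. Monocyte Ccl4 was lower, with 5.6, 4.53 and 1.19 counts in the 3 groups. For comparison, brain endothelial cells lay at 0 to 23.5 CPM of Ccl3.

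**Figure D4:**
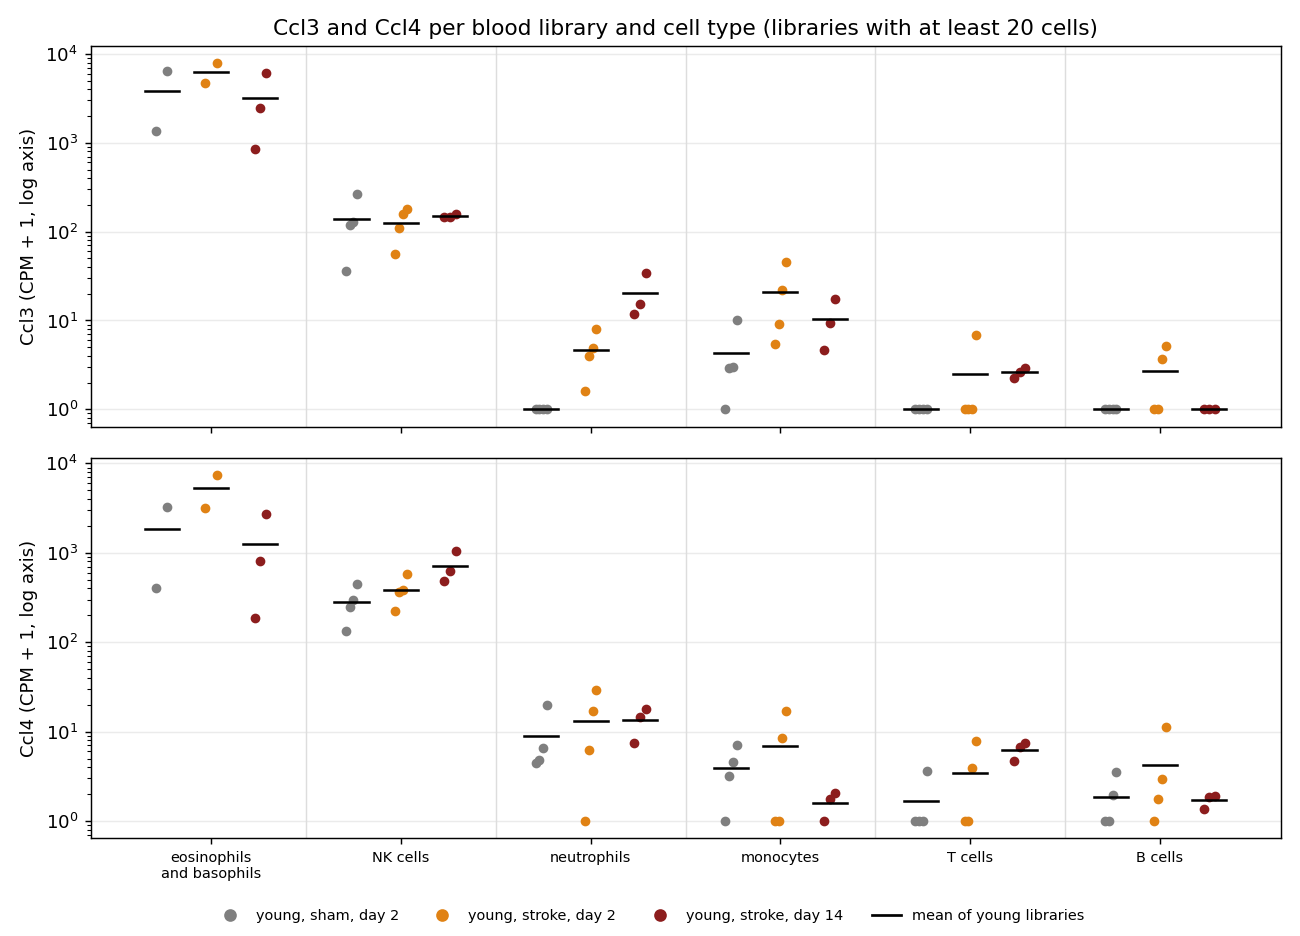
Ccl3 and Ccl4 in blood cell types of young mice, as CPM + 1 on a log axis, so that 0 CPM lies at 1; each point is 1 library of sham day 2, stroke day 2 or stroke day 14, and the bar is the mean. Eosinophils and basophils lie at 858 to 7854 CPM of Ccl3, NK cells at 35.3 to 264, and every monocyte and neutrophil mean is lower than the NK cell means.

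Brain granulocytes and monocyte-derived cells stood far above their closest blood counterparts after stroke, and lay above them in sham too. In sham, monocyte-derived cells averaged 329 CPM of Ccl3 and 396 CPM of Ccl4, against 3.87 and 2.79 CPM in pooled blood monocytes. Sham granulocytes averaged 77.4 and 67.2 CPM, against practically 0 and 12.2 CPM in pooled blood neutrophils. The sham difference between brain and blood was not tested. At day 2, granulocytes held 164 times the Ccl3 of blood neutrophils (90.1 to 325, 95% counting interval) and 47 times the Ccl4 (36.2 to 60.6). At day 14 the ratios were 159 (101 to 255) and 286 (184 to 498). The fitted differences were 7.23 and 6.01 at day 2 (adjusted p = 4.36e-08 and 1.57e-07, edgeR), where 13.7% of 1982 genes were called, and 7.53 and 8.50 at day 14, where 23.7% were called. Monocyte-derived cells held 16.4 times the Ccl3 of blood monocytes at day 2 (10.4 to 26.4) and 47.9 times at day 14 (28.5 to 84.6). For Ccl4 the ratio was 166 at day 2 (64.5 to 464), and at day 14 it was 1150 with an interval of 245 to 54069, since the blood monocytes held 1.19 counts. The fits called both genes at both times, among 28.6% of 7651 genes at day 2 and 17.9% at day 14. The tissue, the papain digestion and the sort differ together between brain and blood and cannot be told apart.

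Granulocytes of aged brain were also tested at day 2. In aged granulocytes Ccl3 stood at 0 and 87 CPM in the female and the male sham library, and at 1522, 663 and 983 CPM in the 3 stroke libraries. Ccl4 stood at 0 and 190 CPM in sham and at 2656, 1235 and 597 CPM after stroke. The groups did not overlap, and both genes rose in edgeR, with log2 fold changes of 4.17 (adjusted p = 0.0243) and 3.76 (adjusted p = 0.0249) while 3.14% of 1401 genes were called. The sham libraries held 2.86 counts of Ccl3 and 6.25 of Ccl4 in 76 cells, so the ratio of counts was 22.6 with an interval of 7.26 to 106 for Ccl3 and 17 with 8.02 to 48.6 for Ccl4. Both calls were lost without the 5% of cells with the most counts (3.71 and 3.49, adjusted p = 0.0605 for each), without the female sham library (3.20, adjusted p = 0.155, and 2.78, adjusted p = 0.181) and without stroke replicate 1 of the females (3.78, adjusted p = 0.094, and 3.11, adjusted p = 0.099).

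In aged monocyte-derived cells Ccl4 rose after stroke, from 102 and 210 CPM in sham to 986, 602 and 1060 CPM (log2 fold change 3.16, SE 0.62; adjusted p = 0.0134, edgeR), with 2.56% of 8150 genes called. The median of all genes in that fit was 0.43. Ccl3 stood at 80.6 and 204 CPM in sham and at 217, 249 and 434 CPM after stroke, a difference of 1.76 (SE 0.52; adjusted p = 0.079) that passed with every value rounded up (1.79, adjusted p = 0.0426). The Ccl4 call was lost without either sham library (adjusted p of 0.0923 and 0.128), which together held 85 cells. In aged microglia Ccl3 stood at 862 and 505 CPM in sham and at 1215, 887 and 337 CPM after stroke, and Ccl4 at 1254 and 604 and at 2247, 1479 and 287 CPM. These differences, 0.33 (adjusted p = 0.892) and 0.61 (adjusted p = 0.795), were not called among 2.3% of genes that were.

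The difference between the ages was tested itself. Aged against young stroke, and the interaction of age with stroke, called 0% of genes in microglia, granulocytes and monocyte-derived cells in edgeR. At an unadjusted p under 0.05, aged against young stroke gave 643 genes in microglia, 109 in granulocytes and 156 in monocyte-derived cells, and DESeq2 called 2, 1 and 13. The interaction gave 623, 61 and 475 genes, and DESeq2 called 1, 0 and 3. In monocyte-derived cells the aged stroke libraries differed from young ones by 0.71 for Ccl3 (unadjusted p = 0.0292) and 1.03 for Ccl4 (0.0131), each with an adjusted p of 1, edgeR. The interactions there were 1.95 (SE 0.61; unadjusted p = 0.00507) and 2.60 (SE 0.73; 0.00239), both with an adjusted p of 0.802, edgeR. In granulocytes aged against young stroke gave 1.15 (adjusted p = 0.585) and 0.66 (adjusted p = 0.822, edgeR). The interactions there were 1.73 (SE 1.20) and 0.02 (adjusted p = 0.978 and 0.998, edgeR). No SE is given for the latter, since a ratio to the square root of F is unstable for so small a difference. The granulocyte Ccl3 difference passed with cells of at least 500 counts (2.58, adjusted p = 0.0363, edgeR). In microglia these values lay between -0.13 and 0.03. The aged and young libraries also differ in sex and in their deposited tables. These list 27514 genes for aged and 19704 for young brain. Whole numbers made up 1.25% to 1.46% of non-zero values in aged and 0.0465% to 0.222% in young stroke day 2 libraries. Age and this difference between the tables cannot be told apart. Aged against young stroke called neither gene in dendritic cells and border-associated macrophages, nor Ccl4 in T cells, where Ccl3 was not tested, with 0.0411%, 0% and 0% of genes called.

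Ccl3 and Ccl4 were often found in the same cell. Among sham microglia with a Ccl3 value above 0, 47.1% also had Ccl4, against 14.3% of those without Ccl3. The shares were 75.5% against 22.1% at day 2 and 76.8% against 32.1% at day 14, and in each of the 12 libraries the share was higher among Ccl3-positive cells (33.8% to 97.2%) than among the rest (9.36% to 45.5%). Both upper ends come from the 58 cells of stroke day 2 replicate 3, and the next highest library stood at 90% and 43%. In granulocytes the shares were 13.6% against 3.64% in sham, 51.9% against 13.8% at day 2 and 63.6% against 20.2% at day 14. Cells with both genes were also deeper: the median count per cell was 611 against 421 for cells with neither in sham microglia, 2553 against 544 at day 2 and 1548 against 361 at day 14. The part of depth in this sharing was not tested. The counts were concentrated in few cells, with 65.8% to 80.6% of a gene's microglial counts in the tenth of cells that held the most.

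The balance of the 2 genes was followed as a ratio. The mean log2 ratio of Ccl4 to Ccl3 counts per library was 0.41, 0.76 and 0.66 in microglia of sham, day 2 and day 14, and 1.38, 2.56 and 2.21 in dendritic cells. Blood eosinophils and basophils leaned the other way, with -1.29, -0.31 and -1.56, and blood NK cells of day 14 reached 2.16. Drop-seq counts transcript ends, so the ratio is of counts, not of protein. Of 17 comparisons between groups within a type, none was called in the exact permutation test (lowest adjusted p = 0.389), which can give no p below 0.0286 with 4 against 4 libraries and little room after adjustment.

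**Figure D5:**
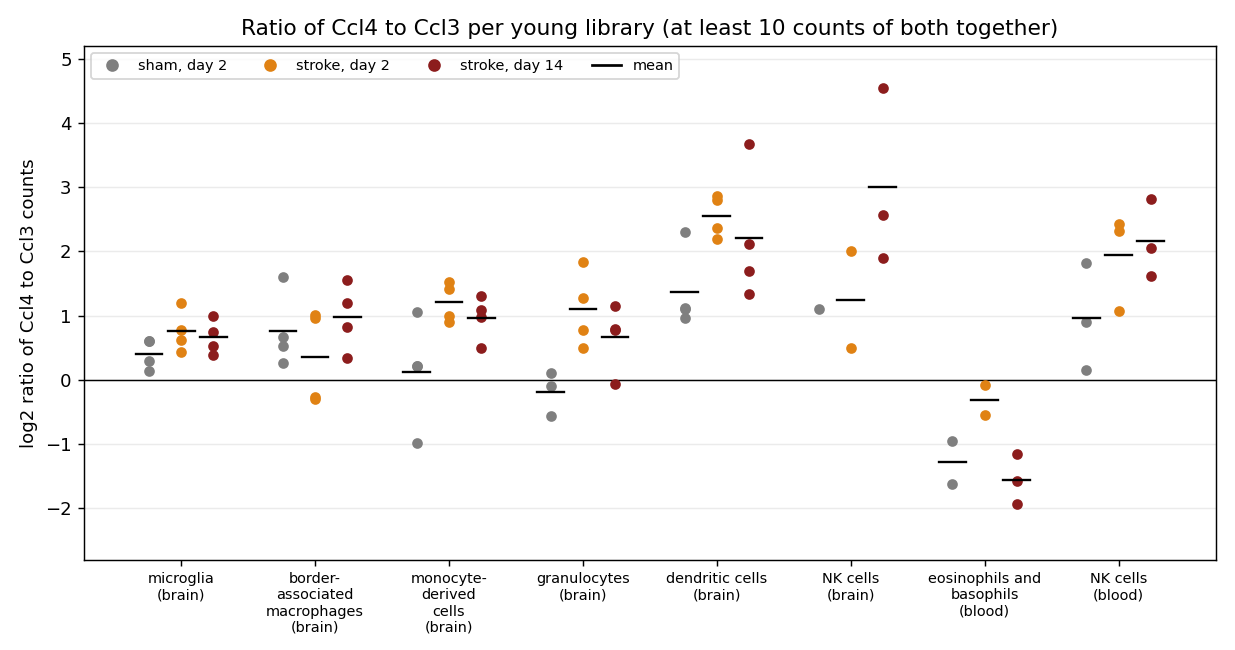
Log2 ratio of Ccl4 to Ccl3 counts per library in cell types of young brain and blood; each point is 1 library with at least 10 counts of both genes together, and 0 means equal counts. Eosinophils and basophils of the blood lie below 0 on average (-1.56 at day 14), and dendritic cells above (2.56 at day 2).

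Chemokine receptors were also read in each cell type. In young libraries Ccr1 was highest in brain granulocytes (1228 CPM over the summed cells of the 12 young brain libraries) and blood neutrophils (1042 CPM), followed by brain monocyte-derived cells (506 CPM), and stood at 9.05 CPM in microglia. Ccr3, the eosinophil receptor for eotaxins, reached 569 CPM in blood eosinophils and basophils and 20.3 CPM in brain granulocytes. Ccr1 of young granulocytes differed from sham by -0.01 at day 2 (adjusted p = 0.986, edgeR) and by 0.43 at day 14 (adjusted p = 0.327); without TMM scaling these were 0.24 and 0.94, and the latter passed (adjusted p = 0.0204).

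Other genes of the pathway were read from lists chosen with earlier results of these data known. In granulocytes at day 14 against sham, all 5 inflammatory cytokine genes that could be tested (of 10) rose, with a median log2 fold change of 3.32 against -0.06 for all genes, of which 26.1% were called. Of the NF-kB subunits and feedback genes, 3 of 4 tested rose (median 2.59), and of the immediate early genes 7 of 11 rose (median 1.38); none of these fell. At day 2 the counts were 3 of 5, 2 of 4 and 3 of 11, where 8.35% of all genes were called. The filter admits a gene with enough counts in stroke libraries only, so these list counts depend in part on it and are a description. Genes picked out after their values were seen are Tnf, an inflammatory cytokine, which rose by 3.85 at day 2 (adjusted p = 0.000718) and 3.62 at day 14 (adjusted p = 0.00026), and Nfkbia, the feedback inhibitor of NF-kB, which rose by 2.10 and 2.55 (adjusted p = 0.000718 and 1.45e-05). Ccl6, a Ccr1 ligand and the only other ligand that could be tested, fell by 1.35 at day 14 (adjusted p = 0.0195), or by 0.83 without TMM scaling (adjusted p = 0.116).

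The same lists were read in microglia. At day 2, 5 of 12 immediate early genes fell and 0 rose (median -1.68 against -0.05 for all genes, of which 31.4% were called), or 3 of 12 fell without stroke day 2 replicate 3, the library that stood apart. Among the 5 were Fosb (fell by 2.81, adjusted p = 0.0281, or 0.0513 without that library), Jun (fell by 2.61, adjusted p = 0.0166) and Egr2 (fell by 2.33, adjusted p = 0.0064), all inducible transcription factors. Of 10 NF-kB genes, only 2 subunits fell, a smaller share than the 31.4% called among all genes. They were Rel, by 1.44 (adjusted p = 0.00974), and Nfkb1, by 1.12 (adjusted p = 0.0145). In the same comparison, with stroke day 2 replicate 3 included, all 4 other ligands that could be tested rose. The summed ligand list lay at 223 to 315 CPM in sham and at 459 to 1638 CPM at day 2 (median 597). Ccl5 went from 1.49 to 83 CPM, Ccl7 from 2.56 to 60.2, Ccl9 from 122 to 388 and Ccl6 from 141 to 280 CPM, the last with adjusted p = 0.0206, or 0.0544 without TMM scaling and 0.0633 in DESeq2. Of 8 cytokine genes 2 rose, also with replicate 3 included, which is again a smaller share than among all genes. They were Cxcl10, an interferon-induced chemokine, from 18.3 to 255 CPM, and Il1rn, the interleukin-1 receptor antagonist, from near 0 to 24.1 CPM. Ccl5, Ccl7 and Il1rn were low in sham and could pass the filter through stroke libraries alone. The microglial list counts, also those of day 14, therefore depend in part on the filter and are a description.

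At day 14 against sham, where 15.2% of all genes were called, 5 of 8 microglial cytokine genes (4 without stroke day 2 replicate 3) and 3 of 4 other ligands rose. In the same comparison 0 of 12 immediate early genes were called. Only 1 NF-kB gene was called, a smaller share than among all genes. This was the subunit Relb, which rose by 1.13 (adjusted p = 0.0384), or differed by 0.66 without TMM scaling (adjusted p = 0.125). Ccl5 reached 274 CPM, Ccl6 578 CPM, Cxcl10 269 CPM and Cxcl2, a neutrophil chemokine, 146 CPM after 2.44 CPM in sham. From day 2 to day 14, with 6.97% of all genes called, 3 of 12 immediate early genes rose (2 without that library, 7 in DESeq2): Fosb by 3.42 (adjusted p = 0.0362, or 0.0658 without it), Egr2 by 2.69 (adjusted p = 0.0101) and Jund by 2.59 (adjusted p = 0.023). Tnfaip3, a feedback inhibitor of NF-kB, rose by 3.33 (adjusted p = 0.0421, or 0.0696 without it). Of the 4 other ligands, Ccl5 rose by 2.46 (adjusted p = 0.0204), Ccl6 rose by 1.63 (adjusted p = 0.00284) and Ccl7 fell by 3.46 (adjusted p = 0.0211).

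The genes with the most similar pattern were sought by Pearson's correlation of log2(CPM + 1), as a description with no test. Over the 12 microglial sums, which share library and depth, each chemokine was nearest to the other (r = 0.968 of 6511 genes). Tnf came next (r = 0.93 with Ccl3 and 0.95 with Ccl4), then Cd83, a maturation marker (0.899 and 0.926), and then Rab20 and Nr4a1, the latter an immediate early transcription factor. Over 83 sums of a library and a brain cell type (6752 genes), Ccl3 was nearest to Ccl4 (0.864), Tnf (0.82) and Tyrobp (0.819), a signalling adaptor of myeloid and NK cells. Ccl4 was nearest to Tyrobp (0.892) and Bcl2a1b (0.881), with Ccl3 in the third place.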

How the data were processed

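Gene expression was measured by Drop-seq in 29 mouse libraries. The deposited tables give estimated counts (expected counts, not whole numbers) per gene and cell, with the authors' cell types and subtypes in the metadata. The genome build mm10 and Seurat are named per the submitters' processing notes; the aligner, the filters on cells and doublets, and the step that made the counts fractional are not given in the sources used here. The deposited metadata also give the percent of mitochondrial counts per cell, which was not used. All deposited cells were kept, and no doublet caller was run. Counts were summed per library and type (at least 20 cells), rounded, and tested with edgeR 4.0.16 (quasi-likelihood, TMM, filterByExpr; R 4.3.3), all genes entering the fit and the Benjamini-Hochberg adjustment; DESeq2 1.42.0 was an alternative. SE is the absolute log2 fold change divided by the square root of F, and is not reliable for very small differences. Subtypes and ratios were tested by exact two-sided permutation over libraries (log2(CPM + 10), and counts + 0.5). Gene members, lists and comparisons were chosen with earlier results of these data known. Some items are not reported here. Named list genes are receptors and the 4 largest called changes per list in microglia. The fit was tested on simulated data for young microglia (9780 genes) and granulocytes (812 genes) at stroke day 2 against sham. In microglia, changes of log2 size 2 were recovered in 70.8% of 96 changed genes, and of size 4 in 99% of 97. In granulocytes the shares were 89.7% of 78 and 100% of 90. Changed genes that the filter dropped are not in these shares. Of the genes called there, 7.87% in microglia and 4.19% in granulocytes were false. Gene positions come from the mm10 annotation. The labels do not say that libraries of a group are separate experiments beyond being separate pools, so p-values measure the spread between these pools.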

Additional observations from a re-analysis of the deposited data

Results flagged for a closer look

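In 3 of the 38 groups of 4 to 10 libraries that were checked, 1 library lay far from the others by Dixon's criterion, of which chance gives about 1 in 20 groups. These were Ccl4 in border-associated macrophages of young stroke day 2 replicate 3 (1615 CPM), Ccl4 in brain T cells of young sham replicate 3 (356 CPM) and Ccl4 in brain T cells of young stroke day 14 replicate 1 (283 CPM).

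The 1 aged library of stroke day 14 (female) enters no comparison and has no sham library of its own time. Its microglia held 1643 CPM of Ccl3 and 2208 CPM of Ccl4, its 21 granulocytes 1031 and 1719 CPM, and its monocyte-derived cells 489 CPM of Ccl4.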

How the results depend on the processing

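Values are log2 differences, with edgeR's adjusted p where a call changed; causes were not tested. In young granulocytes at day 14 against sham, and in brain against blood, both genes kept their direction and call under each alternative run. Under DESeq2, microglial Ccl3 at day 14 against sham was 1.58 (adjusted p = 0.0224), Ccl3 of monocyte-derived cells at day 14 against day 2 was 1.01 (0.0491), aged against young microglial Ccl4 was 0.06, and the interactions of age and stroke were 0.03 (microglial Ccl3) and -0.20 (granulocyte Ccl4). Without TMM scaling, microglial Ccl4 at day 14 was 1.64 (adjusted p = 0.0554), Ccl4 in T cells at day 14 against sham 0.09, aged against young microglial Ccl4 0.04, the 2 interactions 0.04 and -0.03, and Ccl4 of microglia against monocyte-derived cells at day 2 was 1.34 (0.0129). With no filter on low counts, Ccl3 of monocyte-derived cells at day 2 was 0.10, granulocyte Ccl3 at day 2 was 2.20 (0.0704), granulocyte Ccl4 at day 14 against day 2 was 2.02 (0.0626), Ccl4 at day 14 against sham was -0.02 in border-associated macrophages and 0.42 in T cells, blood NK cell Ccl4 at day 14 was 1.48 (0.00216), aged against young microglial Ccl4 was 0.06, and Ccl4 of microglia against monocyte-derived cells at day 2 was 0.88 (0.0214). With values rounded up, microglial Ccl4 at day 14 was 2.05 (0.0754), T cell Ccl4 was 0.31 (day 14 against sham) and 0.11 (against day 2), aged against young microglial Ccl4 was 0.31, its interactions 0.09 (Ccl3) and 0.12 (Ccl4), and Ccl3 of aged monocyte-derived cells was 1.79 (0.0426). With cells of at least 500 counts, microglial Ccl3 at day 14 was 1.75 (0.0471), Ccl3 of border-associated macrophages at day 14 was 0.20, blood NK cell Ccl4 was 2.03 (0.00126), aged against young microglial Ccl4 was 0.14 and granulocyte Ccl3 was 2.58 (0.0363). Without the 5% of cells with the most counts, microglial Ccl3 at day 14 was 1.73 (0.0495), Ccl3 of monocyte-derived cells at day 2 was 0.04, blood NK cell Ccl4 was 1.34 (0.0249), aged against young microglial Ccl4 was 0.08, aged granulocytes stood at 3.71 and 3.49 (both 0.0605), their Ccl4 interaction at -0.07, and aged against young Ccl4 of dendritic cells at -0.22. With at least 50 cells, Ccl3 of border-associated macrophages at day 14 was 0.05, and Ccl4 in subtype MdC3 was -0.39 (day 2) and -0.41 (day 14). In a fit of only the 2 compared groups, microglial Ccl3 at day 14 was 1.75 (0.0401). With sex as a covariate, aged against young Ccl3 was -0.12 in microglia and Ccl4 -0.89 in dendritic cells.

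Whether replicate numbers pair the libraries was not settled. In microglia the deviations of same-numbered libraries correlated at -0.37 to 0.64 over 12 pairs, of which 5 were over 0.1. Their median was 0.0597, against -0.0425 for other pairs. In monocyte-derived cells they ran from -0.0907 to 0.797 (5 of 12 over 0.1), and in blood B cells from -0.345 to 0.478 (5 of 10). With the replicate block, microglial Ccl4 at day 14 was 1.84 (adjusted p = 0.0852), blood NK cell Ccl4 1.37 (0.0295), T cell Ccl4 at day 14 was 0.12 against sham and 0.11 against day 2, and eosinophils and basophils at day 2 stood at -0.60 (Ccl3) and -0.15 (Ccl4). Their Ccl4 at day 14 passed with the block, at -3.47 against sham and -3.31 against day 2. Of their sham libraries with at least 20 cells, only replicate 1 has a same-numbered library in another group. The blocked comparisons with sham therefore rest on 1 sham library. The block also uses up nearly all freedom among the 7 libraries, so no adjusted p is given for this type. Genes called in monocyte-derived cells at day 14 against day 2 went from 145 to 469 with the block. The block changed no other call of Ccl3 or Ccl4.

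Leaving out 1 library at a time gave these ranges. In young microglia, day 2: -0.38 to 0.80 (Ccl3) and -0.02 to 1.29 (Ccl4), day 14 against sham: 1.27 to 2.07 and 1.42 to 2.56. In monocyte-derived cells, -0.39 to 0.02 (Ccl3, day 2) and 0.89 to 1.79 (Ccl4, day 14); in granulocytes, 1.89 to 2.77 (Ccl3, day 2). For microglia against monocyte-derived cells at day 2, 0.80 to 1.62 and 0.44 to 1.12; for blood NK cell Ccl4 at day 14, 0.91 to 1.52. In aged microglia against sham, -0.12 to 0.77 and -0.03 to 1.24, against young -0.33 to 0.81 and -0.56 to 0.74, and the interactions -0.48 to 0.60 and -0.72 to 0.51. In aged monocyte-derived cells Ccl4, 2.92 to 3.75. In aged granulocytes against sham, 3.20 to 8.77 and 2.78 to 9.34, against young Ccl4 -0.02 to 1.04, and its interaction -0.91 to 5.70. Reversals among differences that were not called gave -0.01 to 0.48 (dendritic cell Ccl4, day 14 against day 2), -0.39 to 0.07 and -0.28 to 0.28 (border-associated macrophages at day 14), -0.59 to 0.58, -0.35 to 0.15 and -0.63 to 0.63 (T cell Ccl4), -1.92 to 0.62 (brain NK cell Ccl4), -1.09 to 1.07 and -1.63 to 1.41 (eosinophils and basophils at day 14), -0.09 to 2.02 (their Ccl3 at day 2), -0.64 to 0.54 and -0.01 to 1.73 (aged against young Ccl4 of dendritic and T cells), and for the ratio -0.21 to 0.05 (microglia) and -0.61 to 0.06 (eosinophils and basophils, day 14).

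Counts of all genes called moved by over 1.5 times in some comparisons: microglia at day 14 against sham 1546 (3425 without TMM scaling), granulocytes at day 2 83 (45 with no filter) and at day 14 against day 2 42 (25), microglia at day 14 against day 2 707 (426 to 1157), monocyte-derived cells at day 2 542 (350 with cells of at least 500 counts), aged granulocytes 44 (16 to 77), aged monocyte-derived cells 209 (111 to 326), aged microglia 255 (466 in DESeq2), brain granulocytes against blood neutrophils at day 2 271 (99 to 741), border-associated macrophages at day 2 35 (2 with cells of at least 500 counts) and dendritic cells at day 2 44 (124 with no filter). Of the inflammatory cytokines in aged monocyte-derived cells, 7 of 9 were called, and 2 without TMM scaling. The share of calls that were higher moved from 69.3% to 19.6% in microglia at day 14 against sham (49.9% to 17.5% against day 2) and from 49.8% to 76.2% in granulocytes at day 14, from 84.3% to 50.7% in monocyte-derived cells at day 2, from 81.7% to 50.1% at day 14 and from 90.4% to 47.7% in aged ones, without TMM scaling. The median of all genes moved from -0.06 to 0.44 in granulocytes at day 14 and from 0.43 to -0.22 in aged monocyte-derived cells. Where a group held few counts (young and aged sham granulocytes, blood monocytes and neutrophils), depth limits the comparison.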
